A study of Mus musculus with 7 samples.

Results

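A list of 10 genes of the surface and quiescence program of muscle stem cells (MuSCs) was followed through the chromatin libraries of the series: Calcr, Cd34, Cxcr4, Sdc3, Sdc4, Vcam1, Itga7, Itgb1, Cdh15 and Chrdl2. They were taken from a fixed list and not ranked by their values, as 10 of the 21911 protein-coding genes of GENCODE M21 on chromosomes 1 to 19, X and Y. Earlier results of these data were known when the list was chosen. For each gene, every peak that touched the gene body or the 20 kb on either side was used, and no windows overlapped. The windows held 135 of the 122720 merged open regions of the series, and 72 of the 135 had a peak in all 4 ATAC libraries (53.3%, against 50.2% of all regions). Another 37 had a peak in a single library (27.4%, against 30.4%). A region's position is that of its highest summit, counted from the gene's annotated start in the direction of transcription, so negative positions lie upstream.

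MuSCs lie quiet between the muscle fiber and its laminin-rich basal lamina until injury activates them. Several of the proteins listed here hold them in that place or keep them from dividing: the calcitonin receptor Calcr signals quiescence, the integrin pair Itga7 and Itgb1 grips laminin, M-cadherin (Cdh15) joins the cell to the fiber, and the syndecans Sdc3 and Sdc4 carry heparan sulfate chains that bind growth factors. Cd34, Vcam1 and Itga7 also serve as handles for sorting MuSCs, so these 3 genes encode markers of the study's MuSC sort.

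There were 7 mouse libraries, with 2 biological replicates in each ATAC group by the series' design text. ATAC-seq, in which a transposase cuts accessible DNA, gave 2 Control and 2 TRF2KO libraries of hind limb MuSCs, labelled 0 h and described as uninjured. CUT&Tag, in which an antibody guides the transposase to a protein on chromatin, gave 2 TRF2 libraries and 1 IgG library of tibialis anterior MuSCs, labelled wild type and 3 days after notexin, a toxin that injures muscle. The study asked whether TRF2, a telomere-binding protein encoded by Terf2, also lies at genes in MuSCs and what its loss does to their chromatin. By the study's methods, TRF2KO mice carried floxed TRF2 and Pax7-CreERT2, a Cre that tamoxifen activates in Pax7-expressing cells, on a C57BL/6 background. Tamoxifen was started in young adults, and the age at collection was not given in the sources used here. The study describes the ATAC Control animals as wild type, and whether they received tamoxifen was not given. The genotype field reads Wildtype for all 4 ATAC libraries, so the titles set the groups. The methods place the CUT&Tag cells in Cre and tdTomato reporter mice, include gastrocnemius muscle and give a shorter time after injury than the label. TRF2 binding after injury and accessibility without injury were therefore not measured in the same state of the cells. The study's MuSC sort kept CD45-, CD31-, CD11b- and Sca1- cells that were α7-integrin+ and VCAM+ or CD34+. Whether VCAM or CD34 was used for the ATAC cells was not given. For isolating the CUT&Tag cells the methods cite a separate source.

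Peaks were those the authors called with MACS in each library. A peak's fold is the height of its summit over the local background, both with 1 added, and its percentile ranks that fold within its own list. MACS listed 84102 to 100521 ATAC peaks per library, and 12290 and 15479 TRF2 peaks against 656 for IgG. Summits held a median of 27 to 32 fragments in the ATAC libraries and 9 in each CUT&Tag library, from 300 sampled peaks per list with a -log10 p under 200. At the start of Terf2 the ATAC fold was 54.3 and 48.4 in the Control libraries, against 21.5 and 18.6 in the TRF2KO libraries, with no overlap. All 7 MuSC markers had a start peak in all 4 ATAC libraries, and none of 4 blood markers had one in any library. Of 14 markers of other cell types 7 had one in all 4 libraries, 6 in some and 1 in none. The start of Acta2, a smooth muscle actin, had folds of 51.8 and 43.7 in Control against 25.8 and 26.3 in TRF2KO. The part of other cell types in any difference between genotypes was not tested. Fewer cells of a type and less open chromatin per cell cannot be told apart in such bulk libraries.

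All 10 genes had an open region over their start in all 4 ATAC libraries (60.6% of protein-coding genes had one), and GoPeaks, another peak caller, listed a region there in all 4 libraries for all 10. SEACR did so for 9. In 9 of the 10 genes, all but Sdc3, the start region stood above percentile 75 in every library. The share of all coding gene starts above that bar was not counted. The median over all regions at coding gene starts was 87.1 in Control 1. Chrdl2, Vcam1, Cd34 and Sdc3 lay below it there, at 81.8, 76.4, 75.9 and 36.8.

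**Figure D1:**
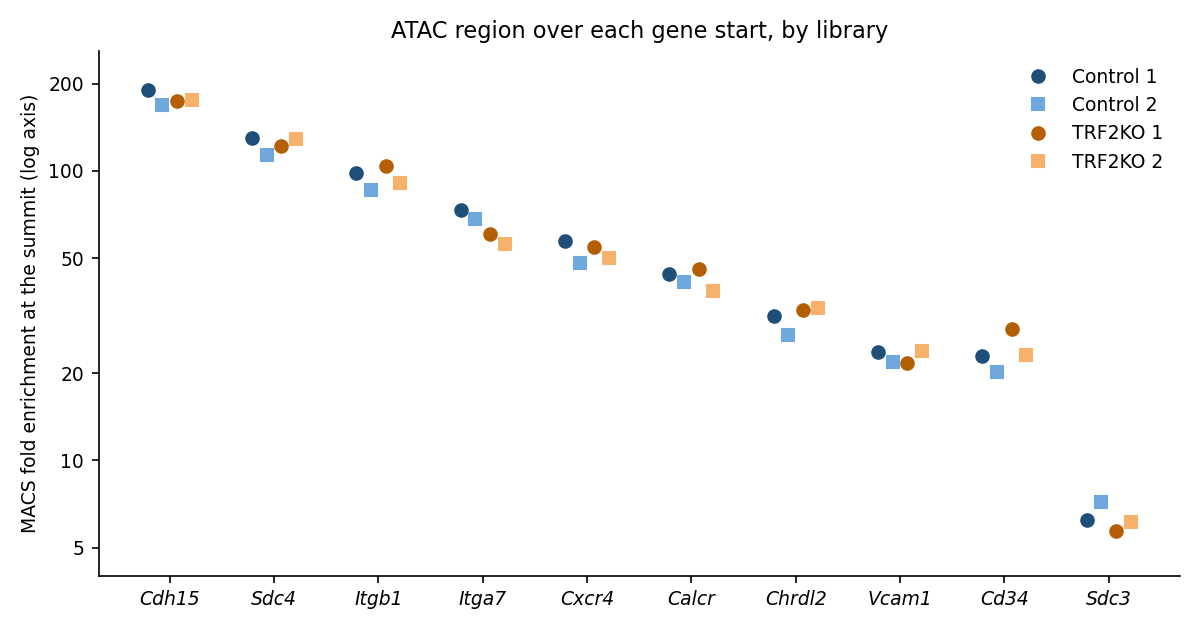
MACS fold enrichment of the ATAC region over the start of each gene, on a log axis, with 1 point for each of the 2 Control and 2 TRF2KO libraries; genes are ordered by their mean Control percentile. The 4 libraries of a gene lie close together, from Cdh15 at 170 to 191 down to Sdc3 at 5.72 to 7.20.

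Cdh15, the cadherin that anchors the stem cell to its fiber (chr8:122847966-122867397, plus strand), had the strongest start region of the list. Its fold was 191 and 170 in Control and 175 in both TRF2KO libraries, at percentiles between 99.5 and 99.9. The region ran from chr8:122847887-122854075 on GRCm38, and its summit lay in an intron, 2846 bp into the gene. The 300 bases around that summit, on the plus strand from the RefSeq copy of GRCm38, are shown because this was the most open site of the list. Capitals mark CAGCTG, an E-box of the kind that myogenic factors such as MyoD bind, and TGACTCA, the AP-1 motif.
Cdh15 chr8:122850663-122850962: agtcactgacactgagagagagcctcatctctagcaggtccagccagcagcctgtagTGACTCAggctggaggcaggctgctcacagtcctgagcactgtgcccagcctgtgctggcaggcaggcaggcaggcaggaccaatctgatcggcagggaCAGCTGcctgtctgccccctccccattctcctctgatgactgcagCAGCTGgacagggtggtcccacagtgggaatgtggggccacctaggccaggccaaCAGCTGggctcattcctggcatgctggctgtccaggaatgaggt
It held 3 E-boxes and 1 AP-1 motif. Over the 61610 regions of the series with a peak in all 4 libraries, 34.9% of such windows held a CAGCTG and 13.2% a TGACTCA on either strand. Among the 72 regions of the listed genes 34 held a CAGCTG (47.2%) and 10 a TGACTCA (13.9%), as a description of letters and not of binding.

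Sdc4, a syndecan (chr2:164424247-164443887, minus strand), stood second at folds of 130 and 113 in Control and 122 and 129 in TRF2KO. Its open region spanned 18865 bp and almost the whole gene, with the summit in an intron at 10855 bp in all 4 libraries. Itgb1, the β1 integrin chain that pairs with Itga7 (chr8:128685654-128733200, plus strand), followed at 98.7 and 86.0 in Control and 104 and 90.6 in TRF2KO, with its summit in the 5′ UTR. The ranges of these first 3 genes did not overlap.

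Itga7, the α7 integrin chain used in the sort (chr10:128933818-128958282, plus strand), gave 73.4 and 68.0 in Control and 60.4 and 56.1 in TRF2KO. Both TRF2KO libraries were below both Control libraries, at a summit in an intron 2251 bp into the gene. In TRF2KO 1 the peak listed at the Itga7 start itself was a separate one, with a fold of 35.0. In the other libraries the peak at the start was the one with the intronic summit. The 35.0 therefore has no counterpart there to be compared with. Cxcr4, the receptor for the chemokine Cxcl12 (chr1:128588199-128592293, minus strand), gave 57.1 and 48.2 in Control and 54.7 and 49.9 in TRF2KO. Calcr (chr6:3685680-3764714, minus strand) gave 44.2 and 41.2 in Control and 45.7 and 38.6 in TRF2KO. The ranges of Itga7 and Cxcr4 overlapped in this order, and those of Cxcr4 and Calcr did not.

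Chrdl2, a chordin-like antagonist of BMP ligands (chr7:100006172-100034728, plus strand), gave 31.5 and 27.2 in Control and 33.2 and 33.6 in TRF2KO. Vcam1, an adhesion molecule of the sort (chr3:116109949-116129688, minus strand), gave 23.7 and 22.0 in Control and 21.7 and 23.8 in TRF2KO. Cd34, a sialomucin of the cell surface (chr1:194938819-194961279, plus strand), gave 23.0 and 20.2 in Control and 28.4 and 23.2 in TRF2KO. The ranges of Cd34 overlapped those of Vcam1 and Chrdl2, and Sdc3, the other syndecan (chr4:130792537-130826319, plus strand), came last at 6.21 and 7.20 in Control and 5.72 and 6.13 in TRF2KO.

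The region over the start was the most open of its window in Control 1 for only 4 of the genes, Cdh15, Cxcr4, Itgb1 and Sdc4. Its summit lay at -39 bp in Cxcr4 and 36 bp in Itgb1, but in introns at 2846 bp in Cdh15 and 10855 bp in Sdc4. In Calcr the strongest region was intronic at 23295 bp, with folds of 96.7 and 72.7 in Control and 89.9 and 87.4 in TRF2KO, above every value of its start region. In Sdc3 it lay in an intron at 12760 bp (49.7 and 39.4 in Control, 38.9 and 33.4 in TRF2KO), and in Vcam1 in an intron at 3343 bp (37.3 and 30.1 in Control, 35.5 and 35.6 in TRF2KO). For Chrdl2 it lay beyond the 3′ end at 45954 bp, at 136 and 125 in Control and 120 and 130 in TRF2KO. The strongest sites in the windows of Cd34 and Itga7 were within 1 kb of starts of other genes, A330023F24Rik and Gm16897 in the first and Bloc1s1 and Rdh5 in the second.

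Whether TRF2 loss changed the openness of these sites was asked of the 72 regions with a peak in all 4 libraries. The log2 fold of each region's highest summit, centered on its library's median, was compared between genotypes by limma across all 61610 such regions, with Benjamini-Hochberg adjustment over all of them. At an adjusted p under 0.05, 6 of the 72 regions were called lower in TRF2KO (8.33%, against 7.48% of all regions) and 11 higher (15.3%, against 18.5%). The median difference over the 72 was 0.06 on the log2 scale, and 0.10 over all regions. Both shares were near those of the series.

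**Figure D2:**
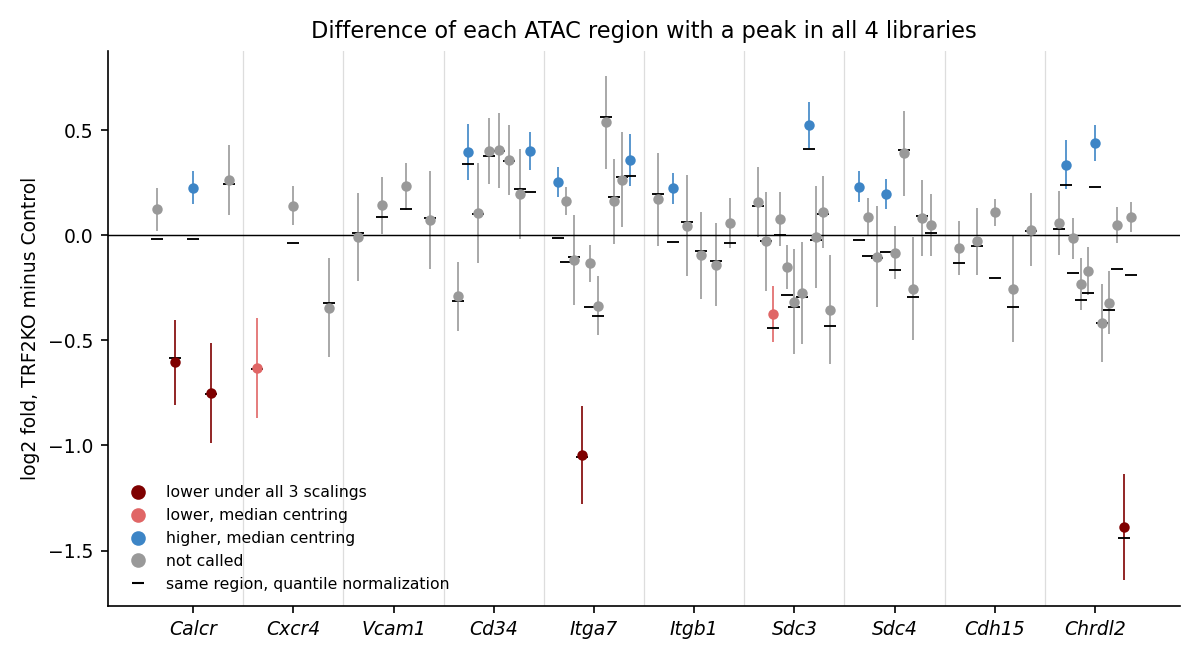
Difference in log2 fold between TRF2KO and Control (median-centered limma estimate, bars 1 SE) for each of the 72 regions, grouped by gene and ordered by distance from its start; colors give the call and black dashes the same region after quantile normalization. Values run from -1.39 to 0.54; the 4 dark red regions, in Calcr, Itga7 and Chrdl2, keep their call under all 3 scalings, while higher regions drop toward 0 or below it after quantile normalization.

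The calls of higher regions depended on how libraries were scaled. Median log2 folds were 3.86 and 3.68 in Control and 3.68 and 3.56 in TRF2KO, and before centering the median difference ran from -0.15 to 0.08 over 4 equal groups of regions by mean fold, and was above 0 only in the group of the highest folds. Over the series the median-centered fit called 4606 regions lower and 11390 higher, quantile normalization 4511 and 3044, and no centering 4231 and 823. In the listed genes the split went from 6 lower and 11 higher to 7 and 1 under quantile normalization and to 5 and 0 without centering. A region is therefore described as changed under all scalings where it was called in the same direction in all 3. By that criterion 4 of the 72 were lower (5.56%, against 5.52% of all regions), and none was higher (against 1.34%).

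The region over each gene start was compared at its highest summit, which in Sdc4, Cdh15 and Itga7 lay in an intron at 10855, 2846 and 2251 bp. For these 3 genes the difference is therefore not one at the start itself. None of the 10 regions was called lower in the median-centered fit. Those of Cd34, Sdc4, Itgb1 and Chrdl2 were called higher, by log2 0.40 ± 0.13, 0.20 ± 0.07, 0.22 ± 0.08 and 0.34 ± 0.12 (SE). Adjusted limma p-values were 0.021, 0.031, 0.021 and 0.025. Of all regions at starts of protein-coding genes 47.7% were called higher and 0.968% lower, against 4 of 10 here. None of the 4 was called under quantile normalization or without centering, and quantile normalization turned the differences of Sdc4 and Itgb1 to -0.08 and -0.03. That scaling called the start regions of Itga7 and Cdh15 lower, by -0.34 (adjusted p = 0.0066) and -0.20 (adjusted p = 0.013), where the median-centered fit gave -0.13 ± 0.09 and 0.11 ± 0.06 (adjusted p = 0.27 and 0.21). The share of all coding gene starts called lower under quantile normalization was not counted, so these 2 of 10 have no share to be read against. Calcr, Cxcr4, Sdc3 and Vcam1 were called under none of the 3 scalings, with median-centered differences of 0.12 ± 0.10, 0.14 ± 0.09, -0.03 ± 0.24 and 0.14 ± 0.14, of which those of Calcr, Cxcr4 and Vcam1 were below 0 under at least 1 other scaling.

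The 4 regions lower under all scalings lay away from the starts, in windows of 3 genes, and their folds in the 2 genotypes did not overlap (20.8% of all regions were separated in this direction).

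**Figure D3:**
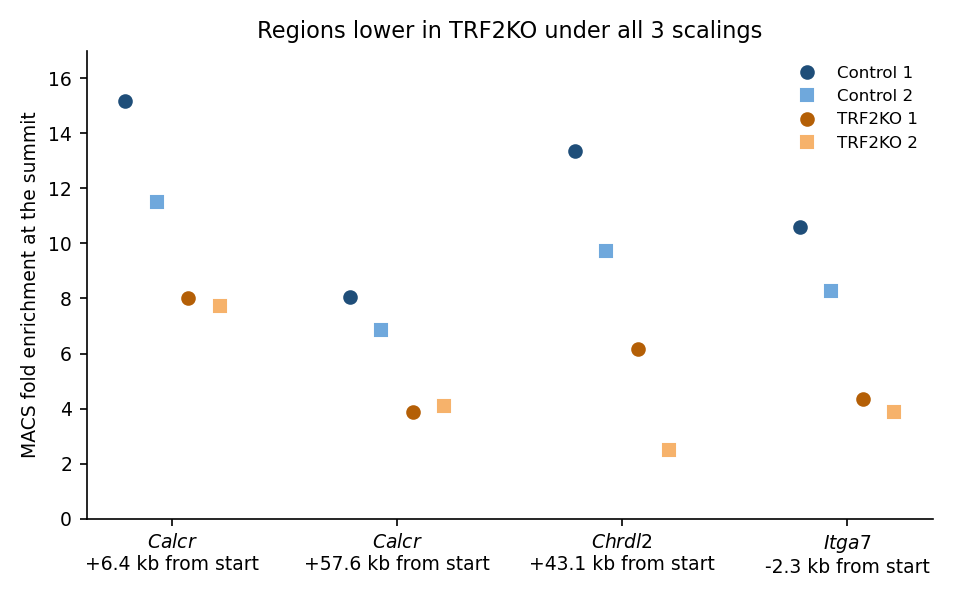
MACS fold enrichment at the summit in each of the 4 ATAC libraries for the regions called lower in TRF2KO under all 3 scalings, 2 in Calcr, 1 downstream of Chrdl2 and 1 upstream of Itga7. In each region both TRF2KO points, from 2.5 to 8.0, sit below both Control points, from 6.84 to 15.2.

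Upstream of Itga7 a region at chr10:128931358-128931904 had its summit at -2254 bp from the start. Its fold was 10.6 and 8.28 in the Control libraries, against 4.35 and 3.86 in the TRF2KO libraries, without overlap. The difference was -1.05 ± 0.23 on the log2 scale (SE, limma, adjusted p = 0.00045). With a library left out it lay between -0.96 and -1.13, and the highest adjusted p of limma was 0.016. The start region of the same gene was not called in that fit. The summit sequence, on the plus strand, is printed because this call held under all 3 scalings and with each library left out, with the E-box and the AP-1 motif (here as TGAGTCA, its other strand) in capitals.
Itga7 chr10:128931415-128931714: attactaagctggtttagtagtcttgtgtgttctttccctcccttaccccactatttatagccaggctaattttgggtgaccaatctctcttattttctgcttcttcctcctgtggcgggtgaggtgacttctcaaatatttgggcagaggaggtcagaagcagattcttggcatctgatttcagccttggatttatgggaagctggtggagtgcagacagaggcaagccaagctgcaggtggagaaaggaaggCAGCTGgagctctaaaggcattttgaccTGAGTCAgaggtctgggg

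In Calcr 2 intronic regions fell, at 6418 bp and 57567 bp from the start. The nearer one (chr6:3758092-3758607) gave 15.2 and 11.5 in Control and 8.0 and 7.72 in TRF2KO, a difference of -0.60 ± 0.20 (adjusted p = 0.019). The farther one (chr6:3707033-3707408) gave 8.05 and 6.84 in Control and 3.89 and 4.09 in TRF2KO, a difference of -0.75 ± 0.24 (adjusted p = 0.014). Neither call held in every set of 3 libraries. Without Control 1 the adjusted p rose to 0.22 and 0.089, without TRF2KO 1 to 0.056 and 0.083, and the farther region also lost its call without Control 2 (0.064). The strongest Calcr region, at 23295 bp between them, went the other way in the median-centered fit (0.23 ± 0.08, adjusted p = 0.028) but to -0.02 under quantile normalization. Both summit sequences follow on the minus strand, that of Calcr. Capitals mark the E-box in the first and, in the second, a G4 pattern, the arrangement of G runs that can fold into a quadruplex (4 runs, each of 3 G or more, spaced by 1 to 7 bases).
Calcr chr6:3758147-3758446: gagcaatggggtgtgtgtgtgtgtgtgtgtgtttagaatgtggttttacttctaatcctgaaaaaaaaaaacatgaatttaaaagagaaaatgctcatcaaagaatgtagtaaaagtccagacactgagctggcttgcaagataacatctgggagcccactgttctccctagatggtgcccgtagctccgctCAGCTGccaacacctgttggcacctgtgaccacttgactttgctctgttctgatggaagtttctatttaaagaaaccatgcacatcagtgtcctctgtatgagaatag
Calcr chr6:3706998-3707297: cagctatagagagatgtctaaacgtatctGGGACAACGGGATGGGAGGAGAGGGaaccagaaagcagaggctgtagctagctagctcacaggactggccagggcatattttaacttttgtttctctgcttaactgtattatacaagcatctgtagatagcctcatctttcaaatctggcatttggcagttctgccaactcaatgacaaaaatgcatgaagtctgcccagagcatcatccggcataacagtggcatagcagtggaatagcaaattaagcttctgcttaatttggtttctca

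Beyond the 3′ end of Chrdl2 a region at chr7:100048089-100049625 gave 13.3 and 9.72 in Control and 6.18 and 2.5 in TRF2KO. The difference was -1.39 ± 0.25 (adjusted p = 2.4e-05). Peaks merged here did not share a summit in every library, since those of TRF2KO 2 and the others lay up to 781 bp apart and the TRF2KO 2 peak sat at percentile 0.773 of its list. Without TRF2KO 2 the difference was -0.80 (adjusted p = 0.012). The Control 1 summit lay at 43113 bp from the start.

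Further regions were called under some scalings. At -3517 bp from the start of Cxcr4 folds were 7.82 and 8.64 in Control and 5.95 and 3.86 in TRF2KO (-0.63 ± 0.24, adjusted p = 0.041), with an adjusted p of 0.082 under quantile normalization. An intronic Sdc3 region at 6078 bp gave 33.1 and 25.7 in Control and 24.0 and 17.2 in TRF2KO (-0.37 ± 0.13, adjusted p = 0.032), with 0.055 without centering. Downstream of Sdc3, at 36992 bp, folds were 32.0 and 31.5 in Control and 40.7 and 41.8 in TRF2KO (0.52 ± 0.11, adjusted p = 0.00021). Quantile normalization kept this call (0.41, adjusted p = 0.015) and no centering did not (0.38, adjusted p = 0.17). Among the listed genes it was the only region called higher by more than 1 scaling. Inside the last part of Chrdl2, at 27724 bp, folds were 63.3 and 57.0 in Control and 72.0 and 75.1 in TRF2KO (0.44 ± 0.09, adjusted p = 7.9e-05), and neither other scaling called it. Vcam1 and Cdh15 had no region called in the median-centered fit in any direction.

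The number of peaks in the windows was 110 and 119 in the Control libraries, against 107 and 112 in the TRF2KO libraries, a difference of means of -5.0 that is less than the spread of the libraries (pooled SD 5.15). They covered 138 and 148 kb in Control and 127 and 116 kb in TRF2KO. Sdc3 went from 19 and 19 peaks to 14 and 15, Cdh15 from 12 and 12 to 10 and 9, and Itgb1 from 8 and 8 to 7 and 6. For these 3 genes the groups did not overlap, as for 14.2% of protein-coding genes in this direction. In the other direction Sdc4 went from 12 and 11 to 14 and 17 and Cd34 from 9 and 9 to 10 and 10, as for 2.78% of genes. Over all genes the median window held 4 peaks in Control 1 and 3 in TRF2KO 1, fewer than the windows named here. Both shares therefore come mostly from smaller counts and are not a like comparison. In each of these 5 genes the exact two-sided permutation p was 0.333, the smallest that 2 libraries against 2 allow, so no gene could reach 0.05. In Sdc4 more peaks came with less covered length (37.3 and 40.2 kb in Control, 35.3 and 32.2 kb in TRF2KO).

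Regions listed for both replicates of a single genotype were counted next. In the windows 6 of the 135 were listed in Control alone (4.44%, against 4.48% of all regions) and 2 in TRF2KO alone (1.48%, against 1.12%). The Control regions were 1 in Calcr, 1 in Sdc3, 2 in Cdh15 and 2 in Chrdl2, and the TRF2KO regions 1 in Cxcr4 and 1 in Cdh15. All were weak, with folds between 2.52 and 5.40. The 2 Control regions of Cdh15 lay in the gene body at 8510 bp (5.29 and 5.40) and 14043 bp (4.14 and 4.14), and GoPeaks listed both in the 2 Control and in neither TRF2KO library. SEACR, however, listed the first in 1 TRF2KO library and the second in both. Only the intronic Calcr region at 18965 bp (4.37 and 4.32) had no region of any of the 3 callers in TRF2KO. A peak missing from a list did not pass its threshold there, which is not the same as closed chromatin.

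**Figure D4:**
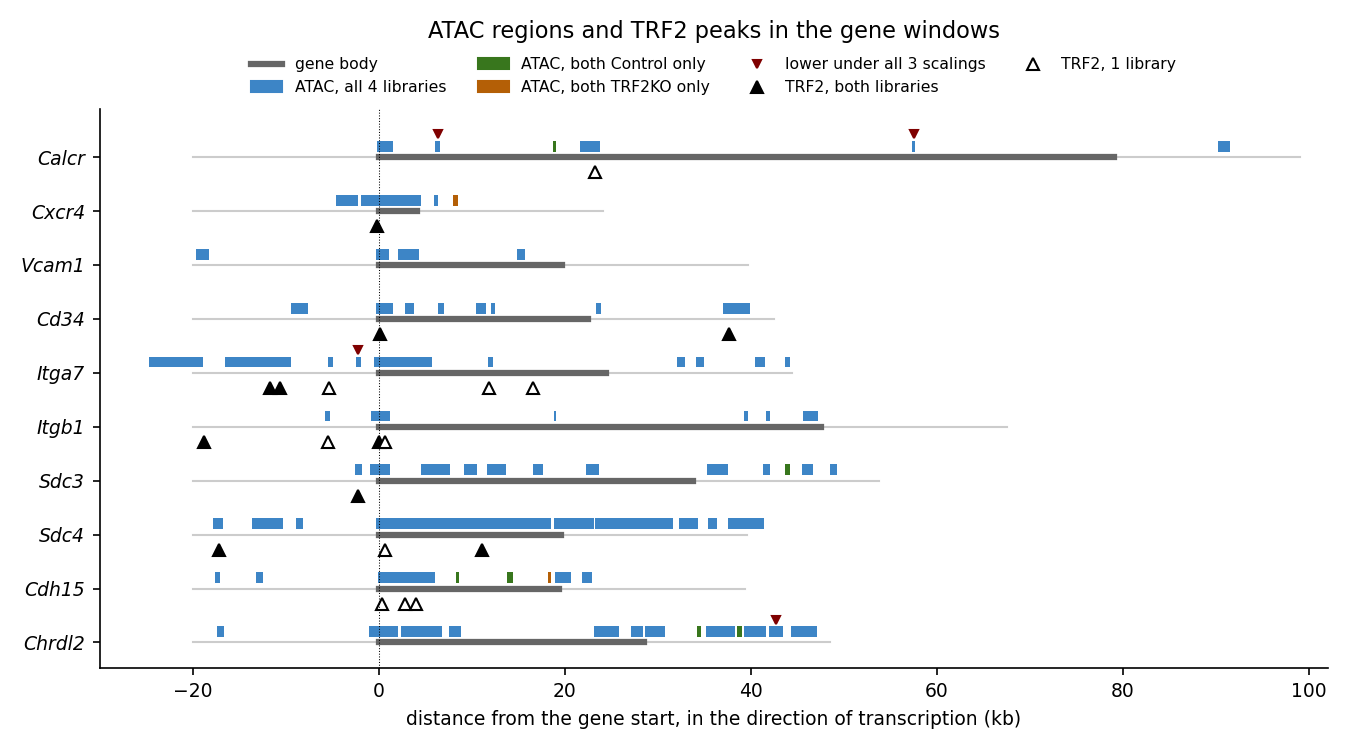
Positions in the 10 windows, in kb from each gene's start in its direction of transcription: gene bodies (gray), ATAC regions with a peak in all 4 libraries (blue) or in both libraries of only 1 genotype (green, orange), regions lower in TRF2KO under all 3 scalings (red triangles) and TRF2 peaks of both (filled) or 1 library (open). Of 20 TRF2 sites 10 are filled and 18 overlap open regions of all 4 libraries; Vcam1 and Chrdl2 have none.

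In the windows CUT&Tag gave 14 and 16 TRF2 peaks and no IgG peak. The TRF2 peaks merged into 20 sites, of which 10 were in both libraries (50% against 36.6% over all TRF2 regions). These 10 fell to 6 genes, and 41.9% of protein-coding genes had such a site in their window. At the start itself, within 1 kb, both libraries had a TRF2 peak at Cd34, Cxcr4 and Itgb1. These 3 of 10 compare with 22.5% of all protein-coding genes, and with 37.1% of those whose start was open in all 4 ATAC libraries.

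Cd34 carried the strongest of them. The TRF2 fold was 8.91 and 7.94, on 15 and 13 fragments at the summit, at percentiles 92.9 and 84.7 of the lists. Its summits lay at 196 bp, in coding sequence, and at 143 bp, in the 5′ UTR, on the open region of the start. It was the only start among the 10 that kept a peak in both libraries at a -log10 q of 5 or more, as 12.5% of protein-coding genes did. A second site of both libraries, at 37637 bp (5.84 and 7.23), sat within 1 kb of the starts of A330023F24Rik and Gm16897 and not in Cd34.

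Itgb1 had TRF2 folds of 6.77 and 5.16 at its start, on 13 and 9 fragments and in the 5′ UTR. A second site of both libraries lay at -18764 bp (7.69 and 6.58), the only one of the 10 with no ATAC peak in any library. Cxcr4 had the weakest of the 3 starts, with folds of 4.60 and 4.08 on 9 and 7 fragments, at percentiles 24.2 and 8.07, and its summits lay at -181 and -173 bp. The window is shown on the minus strand of Cxcr4, since its TRF2 summit is promoter sequence with a G4 pattern, in capitals as the C-rich strand.
Cxcr4 chr1:128592325-128592624: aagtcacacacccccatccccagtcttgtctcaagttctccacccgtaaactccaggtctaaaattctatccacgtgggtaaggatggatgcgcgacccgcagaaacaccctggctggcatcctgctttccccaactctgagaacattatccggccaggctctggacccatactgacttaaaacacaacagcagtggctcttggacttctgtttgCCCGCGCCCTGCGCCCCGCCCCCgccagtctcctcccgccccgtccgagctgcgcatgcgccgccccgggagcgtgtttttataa
Among the 10 sites of both libraries this was the only window with a G4 pattern, where 24.3% of the 7414 TRF2 regions of the series had one and 12.4% of the ATAC regions. Among the 10 sites of 1 library 3 windows had one (30%), at 636 bp in Sdc4, 647 bp in Itgb1 and 339 bp in Cdh15. The repeat of telomeres, TTAGGG, was in 1 of the 10 windows of both libraries (9.85% of TRF2 regions).

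In the syndecans the TRF2 sites of both libraries lay off the start. Sdc3 had a site of both libraries at -2241 bp with folds of 7.16 and 4.55, on 15 and 9 fragments, over an open region that was not called (0.16 ± 0.17, adjusted p = 0.53) and whose ATAC fold, 14.4 to 16.6, was above that of the Sdc3 start. In Sdc4 both libraries had an intronic peak at 11063 bp with folds of 5.77 and 4.97, beside the ATAC summit at 10855 bp. TRF2 2 alone had a peak at 636 bp (5.87), near the start of the first coding transcript of Sdc4 at 701 bp. These sites of both libraries are given on the strand of their gene, plus for Sdc3 and minus for Sdc4, because each is a TRF2 site inside open chromatin with none of the 4 motifs searched.
Sdc3 chr4:130790147-130790446: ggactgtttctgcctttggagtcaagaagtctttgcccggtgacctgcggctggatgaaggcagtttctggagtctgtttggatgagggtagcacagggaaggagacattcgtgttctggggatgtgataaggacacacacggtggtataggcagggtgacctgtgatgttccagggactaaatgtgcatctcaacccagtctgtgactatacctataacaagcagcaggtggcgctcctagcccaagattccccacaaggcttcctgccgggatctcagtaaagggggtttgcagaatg
Sdc4 chr2:164432703-164433002: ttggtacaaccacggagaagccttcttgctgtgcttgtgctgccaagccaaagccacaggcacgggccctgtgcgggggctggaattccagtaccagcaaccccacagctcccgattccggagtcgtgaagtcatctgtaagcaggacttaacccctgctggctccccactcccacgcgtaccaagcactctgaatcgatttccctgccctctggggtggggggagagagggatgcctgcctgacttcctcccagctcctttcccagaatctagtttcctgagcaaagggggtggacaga
The other Sdc4 site of both libraries, at -17171 bp, lay within 1 kb of the starts of Sys1, Gm14302 and Gm20458.

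The remaining sites were at neighbors or in 1 library. Itga7 had 2 sites of both libraries at -11711 and -10586 bp, at the starts of Rdh5 and Bloc1s1, and 3 more in 1 library, and its own start had none. The region at -2254 bp that fell in TRF2KO carried no TRF2 peak. Cdh15 had TRF2 2 peaks at 339 bp (5.59) and 2788 bp (5.54) and a TRF2 1 peak at 3972 bp (3.51), all within the start region and none shared. Calcr had a single TRF2 1 peak at 23248 bp (5.29, on 7 fragments), on its strongest open region. None of the 4 regions lower under all scalings overlapped a TRF2 peak of either library. Of the 72 regions with a peak in all 4 ATAC libraries, from which these came, 10 overlapped peaks of both TRF2 libraries. A few more overlapped a peak of 1 library and most overlapped none, so a lack of overlap was usual.

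Partner genes of the same proteins were counted alike: co-receptors of Calcr, ligand and decoy receptor of Cxcr4, relatives of Cd34, other syndecans and heparan sulfate enzymes, integrin and laminin partners, catenins and BMP antagonists. Of 35 such genes 28 had a start open in all 4 libraries, where 60.6% of protein-coding genes did. Of these 28 start regions, each taken at its highest summit, the median-centered fit called 12 higher, none lower and 16 neither. That stands beside 47.7% higher and 0.968% lower over all coding gene starts. None of the 28 was called under all 3 scalings. The lowest adjusted p-values were those of Lamc1 (a laminin chain, 0.46), Sdc2 (0.41), Cd164 (a sialomucin, 0.38), Jup (plakoglobin, 0.29) and Xylt2 (an enzyme that starts heparan sulfate chains, 0.44), all as log2 differences of the median-centered fit. After quantile normalization Jup stood at -0.01 and the other 4 at 0.14 to 0.28, and none was called. Both TRF2 libraries had a peak within 1 kb of 7 of the 35 starts (20%, against 22.5%), with folds of 8.51 and 11.2 at Lamc1, 8.26 and 9.32 at Sdc2 and 7.89 and 9.82 at Cd164.

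Of 12 other quiescence genes 11 had an open start in all 4 libraries (60.6% of protein-coding genes). In the median-centered fit 7 of the 11 were called higher and 4 were not called, beside 47.7% called higher over all coding gene starts, and none was called under all 3 scalings. These 7 included Foxo3 (0.35), Heyl (0.40), Hey1 (0.39), Cdkn1b (0.30) and Notch3 (0.30), transcription factors, a Notch receptor and a brake on the cell cycle, whose differences were 0.06, 0.16, 0.17, 0.04 and 0.07 after quantile normalization. Such a difference is that of the region's highest summit, which can lie away from the start. At the Heyl start itself folds were 65.1 and 53.1 in Control and 59.5 and 60.6 in TRF2KO. TRF2 peaks of both libraries lay at 3 of the 12 starts (25%, against 22.5%), among them Hey1 (6.12 and 5.56) and Cdkn1b (6.32 and 5.21).

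Open regions did not end at the window borders. Within 5 kb of a border there were 20 regions inside or across it and 22 outside, with median Control 1 folds of 21.3 and 6.79 and highest folds of 146 and 58.9.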

How the data were processed

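Per the submitters' processing notes, reads were aligned to mm10 with Bowtie2 (2.4.4 for CUT&Tag, 2.5.4 for ATAC-seq), handled with Picard 3.1.1, SAMtools 1.10 and deepTools 3.5.3, and peaks were called per library with MACS3 (3.0.0 and 3.0.2). The authors' MACS lists give the fold enrichment of the summit over local background, the -log10 p and -log10 q, and a score that rescales the latter. Deposited GoPeaks regions hold positions, SEACR 1.3 regions positions and signal (normalized coverage), and DiffBind 3.10.1 consensus lists a score per region for each genotype, whose positions alone were used. Read depth is not in these lists. Fragments at a summit were solved from fold and p for 300 sampled peaks per library with a -log10 p under 200.

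Positions were matched to GENCODE M21 and sequence to RefSeq's GRCm38, which is mm10. Peaks of the 4 ATAC libraries overlapping by 1 bp were merged. Regions with a peak in all 4 were tested by limma 3.58.1 (lmFit, eBayes with trend) in R 4.3.3, on log2 fold centered on the library median, with Benjamini-Hochberg adjustment over all 61610 and a threshold of 0.05. With 2 libraries per genotype the prior (64.9 degrees of freedom) set most of each SE, so SEs are nearly a function of the mean fold. Folds depend on each library's own background. Counts of peaks used an exact two-sided permutation test. Python 3.11.15, pandas 2.3.3, numpy 2.4.6, scipy 1.17.1, matplotlib 3.10.9 and pysam 0.24.0 were used. Motifs were sought on both strands of 300 bases around each summit: the E-box CAGCTG, the AP-1 motif TGACTCA, the telomere repeat TTAGGG and the G4 pattern (overlapping matches of different motifs were allowed). Groups came from sample titles.

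All 10 listed genes are named. Of partner and quiescence genes at most 5 per list are named, those with the lowest adjusted p at the start. Other genes are named where a peak of a window lies at their start. The members and lists were chosen with earlier results of these data known. The requirement of a call under all 3 scalings was added after seeing the data. The other scalings, thresholds, callers, windows and omitted libraries tried are given in the closing section.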

Additional observations from a re-analysis of the deposited data

How the results depend on the processing

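Calls in the genotype fit moved most with scaling. The totals were 15996 regions after median centering, 7555 with quantile normalization, 5054 with no centering and 4223 under all 3 scalings, and for the listed genes 17, 8, 5 and 4. These are separate totals: of the 3 scalings, quantile normalization alone called the Itga7 and Cdh15 start regions. Quantile normalization turned the start differences of Sdc4, Itgb1 and Cdh15 to -0.078, -0.030 and -0.20, and those of Calcr and Cxcr4, which were not called, to -0.015 and -0.039. No centering turned the uncalled differences of Calcr, Cxcr4, Cdh15 and Vcam1 to -0.023, -0.0061, -0.038 and -0.0037. The Sdc3 start, at -0.029, stood at 0.019 with a peak required in only 2 libraries and between -0.23 and 0.17 without 1 library. Leaving out 1 library gave 10345 to 13238 calls in all and 6 (without Control 1) to 12 among the listed genes, with 8 without Control 2 and 11 without TRF2KO 2. Each omission leaves a lone sample that is assumed to vary like the other group. The replicate numbers share only a label (correlation of same-numbered deviations 0.0128). With the replicate block 16031 regions were called, 16 of them in the listed genes. For named regions 83 alternatives kept direction and side of the threshold and 12 changed direction. Of those that kept direction 28 lost the call and 1 gained it (Itga7 start region, -0.34 with quantile normalization). Among the 12, quantile normalization also called the Cdh15 start region and dropped the calls of the Sdc4 and Itgb1 start regions. With a peak required in only 2 libraries both Calcr regions lost their call (limma, adjusted p = 0.0741 and 0.0934), and at a -log10 q of at least 5 the lower Itga7 and Chrdl2 regions gave no value. The difference in peak numbers was -5.0, and 3.5 with SEACR regions (means 24.0 in Control and 27.5 in TRF2KO); it lay between -8.5 and -4.5 with other windows, GoPeaks or a stricter q, and between -9.5 and -0.5 without 1 library. Genes with a TRF2 peak at the start numbered 3 in both libraries (22.5% of all protein-coding genes) and 5 in either (36.7%). They numbered 3 without TRF2 2 (29.0%), 5 without TRF2 1 (30.3%) and 1 at a -log10 q of at least 5 (12.5%). Regions of a single genotype numbered 8 with MACS, 5 with GoPeaks, 0 with SEACR and 1 with no region of any caller in the other genotype. They numbered 4 in gene bodies, 5 with 5 kb either side, and 16 to 27 without 1 library, where 1 library stands for its genotype. Summits of 9 fragments in CUT&Tag limit what a missing TRF2 peak can show.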
